A study of Sus scrofa with 2 samples.

Results

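The 10 genes described here, JUN, FOS, EGR2, KLF2, KLF4, KLF6, IER3, NR4A3, CTGF and CYR61, are immediate early transcription factors and immediate early effectors. They were found on the porcine Agilent array by matching the transcript accession of each probe to the RefSeq accessions of these genes in the pig annotation Sscrofa11.1, and all 10 were found, with 18 of the 43597 probes of the array. In the whole series 2459 genes could be named in this way, and 2363 of them had a value. RNA came from ovarian tissue of 10-month-old females on day 15 of the estrous cycle, from which the corpora lutea had been cut out, and was labelled with Cy3 and hybridised to 1 array for minipigs (the Midget breed) and 1 for conventional pigs (Yorkshire). The methods name 5 animals of each breed but do not say whether an array held 1 animal or a pool. No treatment is named for either breed, and the ovaries of both were collected after slaughter. The methods give only an upper limit for the time between slaughter and collection, and no time for each breed.

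Immediate early genes are transcribed within minutes of a signal, without new protein synthesis, and most of their transcripts decay quickly. Growth factors, gonadotropins and cellular stress reach them through MAP kinase, cyclic AMP and serum response factor pathways. In the ovary they are known as early targets of luteinizing hormone in granulosa cells, and the secreted CCN proteins CTGF and CYR61 are known for their part in follicle growth, matrix deposition and vessel formation.

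No difference could be tested, because each breed had a single array, and this sets the precision of every value. Minipig and conventional pig stand below for the arrays that carry these labels. Each level is the log2 of the background-corrected intensity minus the 75th percentile of that array, which was 494 for the minipig array and 513 for the conventional pig array, and each log2 difference is conventional pig minus minipig. The authors' log2 table assigns the 2 arrays to the opposite breeds. Over the 5613 of its probes printed once, the minipig column equalled the scanner values of the array labelled conventional pig after a constant was taken off, with a largest departure of 7.46e-07. The labels of the scanner files are used throughout, and every direction below is exchanged under the labels of the table. Probes printed 5 times gave an SD of 0.25 on the log2 scale for a difference between single spots, over the 42 such probes well above background in both breeds. This SD covers the spot and not the animal.

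Most of the 10 genes were higher in minipig. The log2 difference was negative for 7 genes and positive for 3, with a median of -0.98, while the median over all named genes was 0.04 and over all probes -0.12. Higher in minipig by 2-fold or more were 5 of the 10 genes (JUN, FOS, KLF6, EGR2 and CTGF), beside 7.96% of the 2363 named genes. Higher in conventional pig by 2-fold or more was IER3 alone, or 10% of the genes, beside 11.7% of the named genes. Past 2-fold in either direction were 60% of the 10 genes and 19.7% of the named genes. By probes, 7 of 18 were 2-fold or more higher in minipig, beside 8.94% of all probes with a value, and 1 was so in conventional pig, beside 7.48%. The 10 genes were chosen with earlier results of these data known. The shares therefore describe the chosen genes and are no test of immediate early genes as a class. Each of the 18 probes stood well above background in both breeds, no spot of theirs was saturated or an outlier, and none of their differences is a bound.

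**Figure D1:**
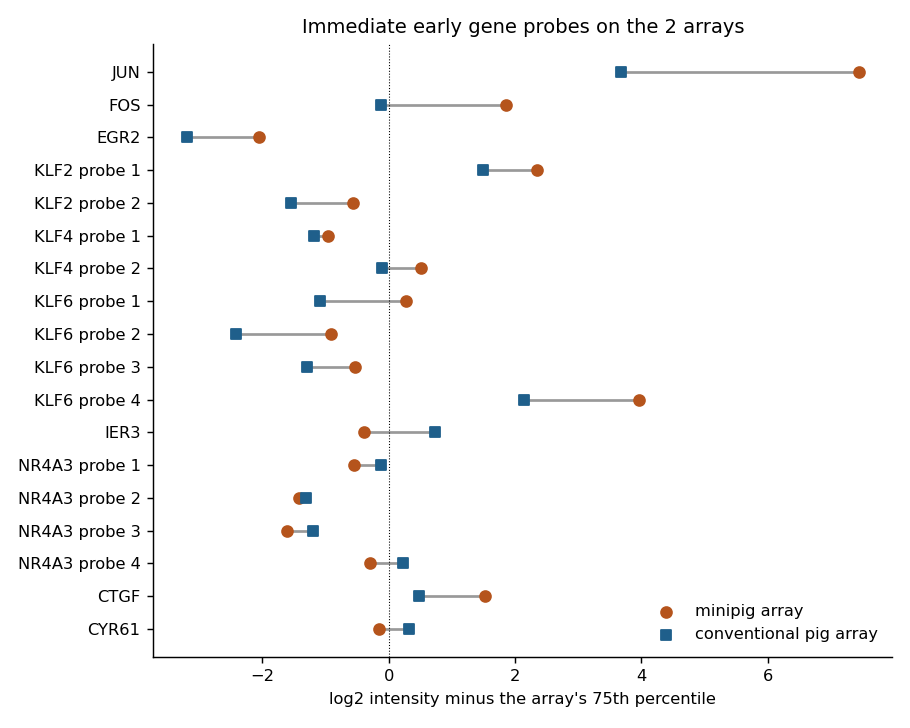
Level of each of the 18 probes on the minipig array (circles) and the conventional pig array (squares), as log2 intensity minus the 75th percentile of the array (0 on the axis). The circle lies to the right of the square for 12 probes and to the left for 6, and the longest line is that of JUN, from 7.44 to 3.69.

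JUN and FOS encode the subunits of the transcription factor AP-1, in which JUN can pair with itself or with FOS, while FOS needs a partner such as JUN. JUN had an intensity of 86078 ± 8608 in minipig and of 6600.2 ± 660.0 in conventional pig, where the error is the one that the scanner software gives for the spot. Its level was 7.44 in minipig and 3.69 in conventional pig, a log2 difference of -3.76, or 13.5-fold higher in minipig. Counted from the lowest, this was difference 9 among the 2363 named genes. FOS had an intensity of 1790.0 ± 179 in minipig and of 470.0 ± 47.1 in conventional pig. Its log2 difference was -1.98, or 3.95-fold higher in minipig, and 1.74% of the named genes were as low or lower. The partners lay on the same side of 0, with a gap of 1.78 between them, beside an SD of 0.36 between differences of 2 single spots. Each of these genes rests on 1 probe.

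EGR2, also called KROX20, encodes a zinc finger transcription factor of the early growth response family. Its intensity was 119.8 ± 12.3 in minipig and 56.0 ± 6.09 in conventional pig. The raw spot signals behind these values, 142 and 98, stood over a local background of 20.5 and 19, so the spot was flagged well above background in both breeds but was dim. The log2 difference was -1.15 from 1 probe. It was -0.46 after normexp background correction, which left it short of 2-fold, and it lay between -0.99 and -0.96 under median centring, quantile and loess normalization and scaling to the spike-in controls, also short of 2-fold.

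KLF2, KLF4 and KLF6 encode Krüppel-like zinc finger factors, of which KLF2 is known for its induction by blood flow in endothelium and KLF4 for its part in differentiation and reprogramming. All 8 of their probes were higher in minipig. KLF6 had 4 probes, with intensities of 601, 263, 342 and 7689 in minipig and of 243, 96.5, 209 and 2277 in conventional pig, in the same order. Their log2 differences were -1.36, -1.50, -0.77 and -1.81, so 3 of 4 probes were past 2-fold, and the gene had a median of -1.43. KLF2 came close to the 2-fold cutoff without reaching it, at -0.92. Its 2 probes had intensities of 2526 and 333 in minipig and of 1440.3 and 176 in conventional pig, with log2 differences of -0.86 and -0.98. Of these 3 genes KLF4 had the smallest difference, at -0.42. Its probes gave 255 and 227 in one case, a log2 difference of -0.22, and 705 and 477 in the other, a log2 difference of -0.62, with minipig first.

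NR4A3, or NOR-1, encodes an orphan nuclear receptor that is induced together with AP-1 in many tissues. It went the other way from AP-1 on these arrays. Its 4 probes had intensities of 339, 185, 163 and 401 in minipig and of 471, 206, 224 and 598 in conventional pig. The log2 differences were 0.42, 0.10, 0.41 and 0.52, with a median of 0.41, so that all 4 probes were higher in conventional pig and none reached 2-fold. IER3, which encodes a stress-induced regulator of apoptosis, was the one gene past 2-fold in the direction of the conventional pig. Its intensity was 377 ± 37.7 in minipig and 852 ± 85.2 in conventional pig, a log2 difference of 1.13 from 1 probe, and 9.73% of the named genes were as high or higher.

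CTGF (CCN2) and CYR61 (CCN1) encode secreted matricellular proteins of the CCN family that bind integrins, and both are known targets of YAP with TEAD and of serum response factor. They lay on opposite sides of 0, CYR61 by less than 0.51, which is 2 SD of a difference between single spots. CTGF had an intensity of 1418 ± 142 in minipig and of 717 ± 71.8 in conventional pig, a log2 difference of -1.04. This is just past 2-fold, and it was short of it under median centring (-0.88) and under scaling to the spike-in controls (-0.86). CYR61 had an intensity of 446 ± 44.7 in minipig and of 643 ± 64.4 in conventional pig, a log2 difference of 0.47. Each gene had 1 probe.

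Set in order of their log2 differences, the genes ran JUN, FOS, KLF6, EGR2, CTGF, KLF2, KLF4, NR4A3, CYR61 and IER3. Of the 9 gaps between neighbours, 5 exceeded 0.36, which is 1 SD between differences of 2 single spots. They were 1.78 after JUN, 0.83 after KLF4, 0.65 after CYR61, 0.55 after FOS and 0.50 after KLF2. The 4 that did not were those among KLF6, EGR2, CTGF and KLF2 and that between NR4A3 and CYR61, so neighbours in these stretches differ by less than the spread of spots. This SD does not measure the spread between different probes of a gene, and 1 SD is a lax mark, so the order is a description only. The differences of 7 genes exceeded 0.51, which is 2 SD of a difference between single spots. Those of KLF4, NR4A3 and CYR61 did not. This mark is for single spots, while KLF4 and NR4A3 are medians over 2 and 4 probes, for which no mark was made. The share of all named genes past 0.51 was not counted. Their quartiles were -0.36 and 0.55, so differences past this mark were common among them too. The error that the scanner software gives amounted to between 0.20 and 0.22 on the log2 scale of a difference for the 18 probes. Around each probe, the other probes within 5 rows and 5 columns that were well above background had a median log2 difference between -0.24 and 0.14, and it was -0.07 around JUN and 0.13 around FOS.

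**Figure D2:**
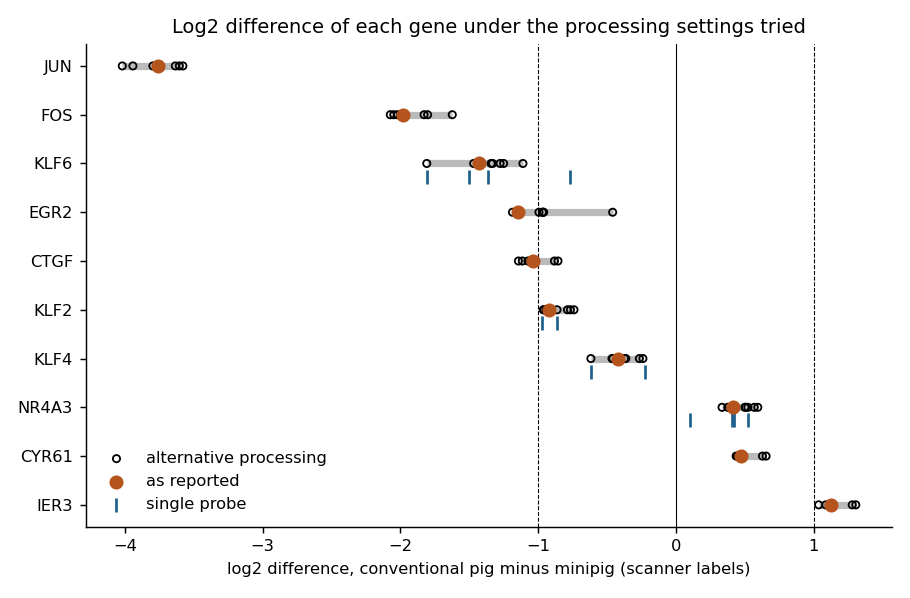
Log2 difference of each gene, conventional pig minus minipig by the scanner labels, as reported (filled circles), under the 9 other scalings, corrections, filters and probe summaries (open circles on grey ranges), and for each probe of genes with several probes (ticks). No gene changed sides of 0, and JUN, FOS, KLF6 and IER3 stayed past the dashed 2-fold lines under all 10 settings, whereas EGR2 was past them in 5 and CTGF in 8. These counts include settings that could not change a value. The 2 filters on dim probes left every gene as reported, since all 18 probes stood well above background. Taking the brightest probe left the single-probe genes, EGR2 and CTGF among them, as reported.

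The spike-in control RNAs, of which 9 of 10 were well above background with 32 spots each, had a median log2 difference of -0.18 at the 75th percentile scaling, with a range from -0.82 to 0.14. Setting this median to zero moved the median of the 10 genes from -0.98 to -0.80. Median centring shifted all probes by 0.15 toward conventional pig and gave a median of -0.82 for the 10 genes. In both cases 3 of the 10 genes, JUN, FOS and KLF6, were higher in minipig by 2-fold or more, as were 5.72% and 5.93% of the named genes, respectively. Without JUN the median was -0.92.

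**Figure D3:**
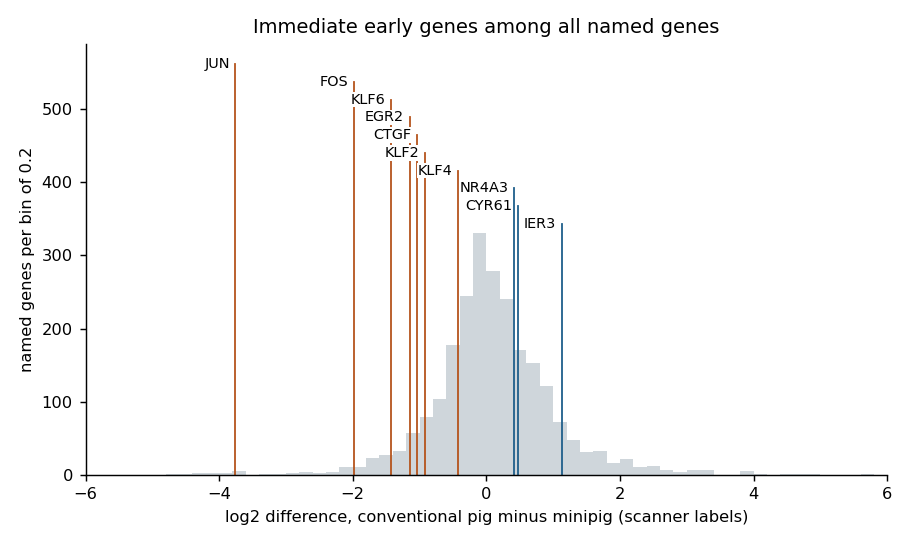
Number of named genes in bins of 0.2 of the log2 difference, conventional pig minus minipig by the scanner labels (grey), with a vertical line for each of the 10 genes. JUN lies at -3.76 in the lower tail, where 0.38% of the 2363 genes are as low or lower, and NR4A3 and CYR61 lie within the bulk, with 30.1% and 27.5% of the genes as high or higher. The heights of the lines carry no value.

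The genes around these 10 were taken from lists of related factors, inducers and targets. Of 29 other immediate early and feedback genes, 7 had a value, 6 of them higher in minipig, with a median log2 difference of -0.54, and 2 were past 2-fold there: BTG2 (-2.07, 2 probes), an antiproliferative gene induced early by p53 and growth signals, and GADD45A (-1.46), a stress sensor of the cell cycle. Of 15 other EGR, KLF and NR4A factors on the list, 8 had a value, 4 of them higher on each array, with a median of -0.12. The 5 further KLF genes that the array names outside the list lay between -0.49 and 0.19, and 4 of them were higher in minipig, which makes 8 of 13 in all. KLF15 (-1.38) and KLF9 (-1.11), both known as glucocorticoid-responsive members of the family, were past 2-fold, although the 2 probes of KLF9 gave -1.80 and -0.41. Of 14 other AP-1 and CREB/ATF factors only ATF4, the effector of the integrated stress response, had a value, at -0.14 over 6 probes.

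Upstream of the immediate early genes, most of the genes measured were higher in conventional pig. Of 32 listed ligands, receptors, MAP kinase components and serum response factor partners, 7 had a value, and 6 of these were on that side, with a median of 0.82. The epidermal growth factor receptor ligands AREG (3.01 over 2 probes) and TGFA (2.53) were past 2-fold there, while the receptor gene EGFR had a log2 difference of -0.90. Under median centring, loess and quantile normalization 3 of the 7 were past 2-fold toward conventional pig, and under loess and quantile normalization also 1 toward minipig. In the Hippo arm, which acts on CTGF and CYR61 through TEAD factors, 3 of the 6 genes with a value were higher on each array and none was past 2-fold, while 1 was so toward conventional pig under median centring, quantile and loess normalization. TEAD1 was at -0.48 and TEAD4 at 0.97.

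Known targets of AP-1 and EGR factors, with values for 18 of 22 genes, lay on both sides. Their median log2 difference was 0.72, 7 of them were past 2-fold toward conventional pig and 3 toward minipig (4 under quantile and loess normalization). Highest in conventional pig were TIMP1 (3.20), an inhibitor of matrix metalloproteinases, F3 (2.96), which encodes tissue factor, and CCL2 (1.81), a monocyte chemokine. On the other side, IL1B, an inflammatory cytokine, was at -2.94 from 1 probe. MMP1 and PTGS2 were also past 2-fold there, but at least 1 probe of each was not well above background in conventional pig, so their values of -1.36 and -1.75 rest on bounds. Among heat shock genes, 6 of 21 had a value and the median was -0.05, with HSP70.2 at -2.84 and HSPB1 at 2.35. Of 22 hypoxia genes 9 had a value, with a median of 0.32. ADM, which encodes adrenomedullin, was at -1.61, and the glycolytic genes PGK1 and HK2 were at 1.36 and 1.32. All these lists but that of targets had values for 53.3% of their genes or fewer, so they describe only the genes measured. Under median centring the medians of the EGR, KLF and NR4A list (0.03), the Hippo list (0.13) and the heat shock list (0.10) and the value of ATF4 (0.01) were positive, so they have no settled direction. The first of these was also positive under quantile and loess normalization (0.02 in both).

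**Figure D4:**
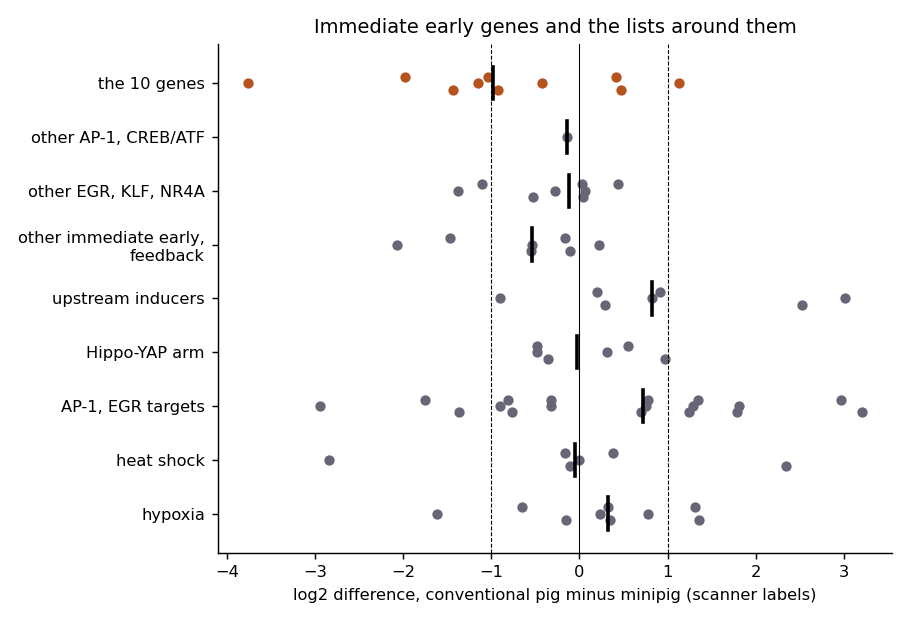
Log2 difference, conventional pig minus minipig by the scanner labels, of the 10 genes and of the measured genes of 8 related lists (1 point per gene, offset up and down only to show overlapping points), with the median of each list as a bar and dashed lines at 2-fold. The bar lies at -0.98 for the 10 genes, at 0.82 for the upstream inducers and at 0.72 for the AP-1 and EGR targets.

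Marker genes of several ovarian cell types also differed in level between the 2 arrays. In bulk tissue, fewer cells of a type and less RNA per cell cannot be told apart. Granulosa markers, with values for 8 of 14 genes, were higher in minipig for 7 of the 8, and 6 were past 2-fold, with FSHR at -3.63 and INHA at -2.61. Among the 6, the 2 probes of INHBA (-1.77) gave -3.91 and 0.37, and the 4 probes of AMH (-1.03) ran from -2.22 to -0.09. The summed level of the granulosa markers, in units of the 75th percentile of each array, was 129 in minipig and 56.3 in conventional pig, or 40.9 and 18.0 without SERPINE2, which made the largest part of both. All 8 oocyte markers with a value, of 13, were higher in minipig, with summed levels of 15.2 and 4.54, or 4.02 and 1.82 without KIT, which made the largest part of both. Of the 12 luteal and steroidogenic markers with a value, of 14, 9 were higher in conventional pig and 6 were past 2-fold there, with summed levels of 189 in minipig and 468 in conventional pig, although corpora lutea had been removed. Endothelial markers had values for 5 of 12 genes, all higher in conventional pig and none past 2-fold (1 under loess, quantile and median scaling), with summed levels of 4.23 and 6.52. Macrophage and leukocyte markers were split, 3 and 3 of the 6 with a value, of 13, and CD4 did not stand well above background in either breed. Theca markers, 8 of 9 with a value, were mixed, from INSL3 at -3.76 to HSD3B1 at 3.11. The 3 past 2-fold toward conventional pig, HSD3B1, STAR (3.07) and CYP11A1 (2.63), are all also among the luteal markers. The 2 past 2-fold toward minipig were INSL3 and CYP17A1 (-1.74). Smooth muscle (4 of 10), epithelial (4 of 7) and fibroblast (1 of 10) markers had medians of -0.76, -0.35 and -0.36, and none of the 8 erythrocyte markers could be named here. The part of these cell types in the differences of the 10 genes was not tested.

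Among the 5 other genes whose log2 difference lay nearest to the median of the 10 were KAT6B (-0.97), SF3B1 (-0.99), TCF7L2 (-0.99) and RBM38 (-0.96), out of 1156 genes whose probes, 2 or more, all stood well above background in both breeds. The likeness is one of a single difference between 2 arrays, and the probes of TCF7L2 ran from -1.01 to 0.09.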

How the data were processed

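RNA from ovarian tissue was measured on 1 single-colour array per breed. The authors ran Agilent Feature Extraction 10.7.3.1, per the labels, and deposited its intensity per spot, corrected for background and not scaled between arrays, with an error and a flag that marks spots well above background. They also deposited log2 values for 5617 probes, all at least 2-fold different, which include 8 of the 18 probes described here, from 6 genes; the paper names GeneSpring for normalization.

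Control spots and outlier spots (5 and 10) were dropped, repeated spots were averaged on the log2 scale, and the 75th percentile of each array was subtracted. Gene values are medians over probes. Where 1 array only was well above background, the difference is a bound against the other array. The bound uses the lowest well-above-background intensity of that array, or the observed intensity where this was higher. Bounds that came out with the wrong sign were dropped. Probes were named through accessions without versions (5577 of 43597), and no coordinates were taken from the reference, whose assembly the array does not name. The genes and lists were chosen with earlier results of these data known. Beyond the 10 genes, the text names the 3 genes furthest past 2-fold each way in each list, among genes with every probe well above background in both breeds, and 4 of the 5 nearest to the median, the other not being reported here; the marker genes, ATF4, EGFR, TEAD1, TEAD4, MMP1 and PTGS2 were chosen after their values were seen.

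Alternatives were normexp correction (offset 50), median centring, quantile and loess normalization (span 0.3), the percentile over probes well above background, 2 filters on dim probes, the brightest probe, the deposited log2 table and other fold cutoffs (1.5 and 3). Scaling to spike-in controls and leaving out JUN were added after seeing the data. The percentile, median, quantile and loess scalings and the probe differences were tested on simulated data. Changes were planted there only in probes well above background in both breeds. Normexp correction, gene medians, the naming of probes and spike-in scaling were not tested in this way. Values were computed in Python 3.11.15 (pandas 2.3.3, numpy 2.4.6, statsmodels 0.14.6), normexp in limma 3.58.1 under R 4.3.3, and figures drawn with matplotlib 3.10.9.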

Additional observations from a re-analysis of the deposited data

How the results depend on the processing

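With the breeds as the deposited log2 table labels them, each listed gene had the opposite sign, by the construction of the table: JUN 3.76, FOS 1.99, KLF6 1.503, EGR2 1.15, CTGF 1.04 and IER3 -1.12. There 1 gene was past 2-fold toward minipig and 5 toward conventional pig. That table holds only probes at least 2-fold different, so every listed gene was past 2-fold in it by construction. For KLF6 it holds 3 of the 4 probes. The table lists none of the other 4 genes, so no median was taken from it. Of the 5 genes past 2-fold toward minipig, 3 remained under median centring and under scaling to the spike-in controls, and 2 (JUN and FOS) were past a cutoff of 3-fold, against 0 toward conventional pig. At 1.5-fold the numbers were 6 and 1. The shares of all named genes past 3-fold and 1.5-fold were not counted, so these numbers describe the 10 genes only. Normexp correction moved the median of the 10 genes to -0.63. Under it the named genes past 2-fold also fell, from 7.96% to 4.15% toward minipig and from 11.7% to 8.76% toward conventional pig. The cause of these shifts was not tested. Quantile normalization moved the median of the heat shock list from -0.05 to -0.32. The medians of the other related lists, and the median of the 10 genes under the other alternatives, moved by less than 0.25, the SD between single spots. The number of genes past 2-fold toward minipig in the EGR, KLF and NR4A list was 1 under median centring, quantile and loess normalization, and 2 at the 75th percentile scaling. Granulosa markers past 2-fold toward minipig were 4 under median centring. Naming probes by a gene name column was not run, since the columns used here carry accessions only, and normexp was run on median spot signals in place of mean ones. No paired analysis was possible because each breed has 1 array. What limits these values is the number of arrays and the assignment of the arrays to the breeds, and for EGR2 also a dim spot.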
